A study of Mus musculus with 16 samples.

Results

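The genes described here encode the nuclear subunits of the mitochondrial respiratory chain and of ATP synthase, together with a few relatives that share their names. A gene was included when the array annotation gave it a probe set with exactly 1 gene symbol, and that symbol began with Nduf, Uqcr, Atp5 or Cox followed by a digit from 4 to 8, or was Sdha, Sdhb, Sdhc or Sdhd. This chose 85 of 21634 genes, measured by 728 of the 303629 probe sets with 1 symbol. The number of probe sets ran from 1 to 23 per gene, with a median of 8. A further 25 probe sets carried a matching symbol beside another symbol and were left out. Of the 85 symbols, 80 are current in the RefSeq gene table and 5 are older synonyms. Cox4nb matched by its letters alone and encodes no subunit of the chain. The subunits that the mitochondrial genome encodes, and Cox7a1, were not analysed here.

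Whole brain and spinal cord were taken from CD1 mouse embryos, an outbred stock, at E18.5, shortly before birth. They were either wild type or double knockouts of Nova1 and Nova2, a pair of neuronal RNA-binding proteins that control alternative splicing. Both genes were removed in every cell that would express them, and no group lacked only 1 of them. Total RNA of each sample went onto 1 exon array, with 4 arrays per group, 4 groups and 16 arrays, and the design text calls each array a biological replicate.

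Oxidative phosphorylation makes most of the ATP of neurons. Complexes I and II pass electrons from NADH and succinate to ubiquinone, complex III passes them to cytochrome c and complex IV to oxygen. Complexes I, III and IV pump protons while they do so, and complex V, the ATP synthase, uses the returning protons to make ATP. A core of catalytic subunits in each complex is joined by accessory subunits, and complex IV has subunit isoforms that are used in muscle, lung or testis in place of the common form.

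Levels are given as log2(intensity + 16), and the level of a gene is the median over its probe sets. A gene was called higher or lower when its adjusted p was under 0.05 in limma's two-sided test, adjusted over all 21634 genes by the method of Benjamini and Hochberg. Nova1 checked the labels: it fell from a mean level of 10.24 to 5.11 in brain and from 11.09 to 5.85 in spinal cord. Nova2 fell by 0.75 in brain (adjusted p = 0.00511) and by 1.14 in spinal cord (adjusted p = 2.17e-05). Brain arrays had median intensities of 72.3 to 82.9, and cord arrays of 99.5 to 116. Skeletal muscle markers, as a mean of 15 genes, lay between 6.12 and 6.35 on the brain arrays. On the cord arrays they reached 9.42 and 8.42 in wild type 1 and 4 and 8.67 and 8.09 in double knockout 2 and 4, against 6.58 to 6.82 on the other four. Telencephalon markers were at 7.08 in wild type brain 3 and at 7.73 in double knockout brain 3, below all other brain arrays. Counts and medians over the 85 genes, the named respiratory genes and the exon indices were also computed without these arrays; role medians, related lists and marker lists were not. By Xist and Y-linked genes, wild type brain held 2 females and 2 males, double knockout brain 4 females, wild type cord 2 females and 2 males, and double knockout cord 3 females and 1 male.

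Promoter sequences are shown for genes that the results turn on. RefSeq promoters (build GRCm38.p6, 250 bases before to 50 bases after each start) were found for 70 of the 85 genes, 76 promoters in all. Nuclear respiratory factor 1 and ETS-family factors such as GABP are known to bind the promoters of many respiratory genes. The core that nuclear respiratory factor 1 binds, GCGCA followed by any base and then GCGC, stood on either strand in 18 of the 76 (23.7%), against 4.6% of all 32851 promoters and 6.38% of the 21263 promoters of protein coding genes. The ETS letters CCGGAAG stood in 17 (22.4%), against 8.86% of all promoters. The E-box CAGCTG, which muscle regulators of the MyoD family can bind, stood in 6 (7.89%), against 16.3%. The TATA letters TATAAA stood in 8 (10.5%), against 13.6%. Most of the 76 thus held neither the nuclear respiratory factor nor the ETS letters. A match says only that the letters are there.

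The 200 bases before the start, read 5′ to 3′ on the gene's strand with the matched letters of these 4 motifs in capitals, are shown for 4 genes that the results turn on. Cox6a1 (chr5:115348959-115349158, minus strand) and Cox8b (chr7:140900447-140900646, minus strand) encode the common form of a complex IV subunit and the muscle form of another. Ndufb8 (chr19:44555443-44555642, minus strand) and Ndufs7 (chr10:80249249-80249448, plus strand) were lower in double knockout spinal cord.
Cox6a1: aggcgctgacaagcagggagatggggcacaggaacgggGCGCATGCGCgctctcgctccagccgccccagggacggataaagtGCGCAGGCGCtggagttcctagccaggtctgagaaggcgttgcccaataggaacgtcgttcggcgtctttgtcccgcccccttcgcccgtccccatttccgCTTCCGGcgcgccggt
Cox8b: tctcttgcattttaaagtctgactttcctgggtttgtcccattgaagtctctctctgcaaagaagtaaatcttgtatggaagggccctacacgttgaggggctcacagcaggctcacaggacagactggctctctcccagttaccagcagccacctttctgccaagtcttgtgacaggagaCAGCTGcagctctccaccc
Ndufb8: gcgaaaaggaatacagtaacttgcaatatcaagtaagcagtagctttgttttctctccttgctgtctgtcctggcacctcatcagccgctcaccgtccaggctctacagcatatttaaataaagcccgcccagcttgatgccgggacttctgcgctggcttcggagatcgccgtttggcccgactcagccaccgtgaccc
Ndufs7: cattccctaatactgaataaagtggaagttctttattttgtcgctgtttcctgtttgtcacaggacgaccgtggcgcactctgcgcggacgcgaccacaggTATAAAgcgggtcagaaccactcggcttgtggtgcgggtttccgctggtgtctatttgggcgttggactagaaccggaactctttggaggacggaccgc
Cox6a1 holds 2 matches to the nuclear respiratory factor core and 1 to the ETS letters on the opposite strand. Cox8b holds none of either and has an E-box close to its start. The stretches of Ndufb8 and Ndufs7 hold no match to the nuclear respiratory factor or ETS letters, and Ndufs7 has the TATA letters. Sdhc, Atp5a1 and Cox6a2 are named only.

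In brain, loss of both Nova genes left no call among the respiratory genes. None of the 85 passed the test, where 0.0508% of all genes tested were higher and 0.129% lower (0.18%, 39 genes, in all), and 3 of the 85 had an unadjusted p under 0.05, where 4.3% of all genes did. The median change of the 85 was -0.02, against 0.01 for all genes, and 52 of the 85 were below 0, where 46.8% of all genes were. Changes ran from -0.24 for Uqcrfs1, the Rieske iron-sulfur protein of complex III, to 0.40 for Ndufb4, an accessory subunit of complex I.

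The highest value in brain belonged to Ndufb4, at 6.96, 7.21, 6.83 and 7.46 on the wild type arrays and 7.35, 7.61, 7.55 and 7.54 on the double knockout arrays. Its groups overlapped, and the difference of 0.40 (SE 0.147) had an adjusted p of 0.872 by limma's test. Ndufa2, a matrix-side accessory subunit of complex I, read 8.25, 8.27, 8.09 and 8.30 in wild type and 8.44, 8.91, 8.58 and 8.37 in double knockout brain. Those groups did not overlap, as in 1.67% of all genes in this direction and 1.86% in the other, and the difference of 0.35 (SE 0.145, adjusted p = 1.00) did not pass. It was the only 1 of the 85 without overlap. The 2 lowest by p were Ndufb8 at -0.21 (SE 0.121) and Ndufb7 at -0.20 (SE 0.131), also complex I accessory subunits, with adjusted p = 1.00.

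The catalytic cores were close to 0 in brain. Atp5a1 and Atp5b, the alpha and beta subunits of the catalytic head of ATP synthase, differed by 0.00 (95% interval -0.19 to 0.20) and -0.03 (-0.22 to 0.15). Ndufs1 and Ndufv1, the iron-sulfur and NADH-binding subunits of complex I, differed by -0.07 (-0.37 to 0.23) and -0.03 (-0.29 to 0.23). Sdha, the succinate-oxidising flavoprotein of complex II, differed by -0.04 (-0.29 to 0.21), and Uqcrc1, a core protein of complex III, by 0.01 (-0.23 to 0.24). For Atp5a1 the change in spinal cord, given below, was -0.43 (95% interval -0.62 to -0.24). The difference between its spinal cord and brain changes did not pass limma's test (adjusted p = 0.496). Without both brain arrays of number 3 the median of the 85 was -0.10 with 67 below 0, and still no gene passed.

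In spinal cord 4 respiratory genes were lower in the double knockout and none was higher. They were Atp5a1, Ndufb8, Ndufs7 and Sdhc, which belong to complexes V, I, I and II, and their falls were 0.43, 0.54, 0.46 and 0.37 on the log2 scale. Of all genes tested 2.22% were lower and 0.55% higher, 2.77% in either direction, so 4 of 85 (4.71%) stood beside 481 of 21634. At an unadjusted p under 0.05 there were 12 of the 85, against 15.6% of all genes. In 5 of the 85 every double knockout array lay below every wild type array, against 5.63% of all genes, and in none above, against 3.19%. The median change was -0.12 and 65 of 85 (76.5%) were below 0, against a median of -0.02 and 53.3% for all genes. Bright genes were lower in general. The 8281 genes whose mean level lay between 7.70 and 10.37, the middle range of the respiratory genes, had a median of -0.05. Of these, 331 (4.00%) were lower, near the 4.71% of the 85, and 57 (0.688%) higher. In 753 of the 8281 the arrays did not overlap downward and in 297 upward, and 60.7% were below 0. In whole tissue, fewer cells of a type and less RNA per cell cannot be told apart.

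Atp5a1, the alpha subunit of the ATP synthase head, was at 12.01, 12.04, 11.90 and 11.87 on the wild type cord arrays and at 11.59, 11.60, 11.42 and 11.47 on the double knockout cord arrays. The groups were well separated, and the brain arrays of both genotypes, between 11.93 and 12.17, lay with wild type cord. The change was -0.43 (SE 0.0914, 95% interval -0.62 to -0.24, limma adjusted p = 0.0156, n = 4 per group), 1.35-fold.

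Ndufb8, an accessory subunit in the membrane arm of complex I, read 9.12, 8.98, 9.62 and 9.12 in wild type cord and 8.75, 8.57, 8.67 and 8.69 in double knockout cord. All 4 double knockout arrays were below the lowest wild type array, while wild type 3 stood above its group. The change was -0.54 (SE 0.121, adjusted p = 0.0228), 1.45-fold. In brain the wild type arrays lay between 9.24 and 9.46 and the double knockout arrays between 9.01 and 9.28, which overlapped.

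Ndufs7 carries the iron-sulfur cluster that hands electrons to ubiquinone in complex I. It read 10.65, 10.43, 10.77 and 10.24 in wild type cord and 10.19, 10.15, 9.91 and 9.99 in double knockout cord, so wild type 4 lay just above double knockout 1. The change was -0.46 (SE 0.118, adjusted p = 0.0426), 1.38-fold. Its brain arrays were between 10.62 and 10.90 in both genotypes.

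Sdhc, a membrane anchor of complex II, read 10.81, 10.87, 10.95 and 10.78 in wild type cord and 10.60, 10.49, 10.52 and 10.34 in double knockout cord. Its groups did not overlap, and the change was -0.37 (SE 0.0951, adjusted p = 0.0466), 1.29-fold. The brain arrays of Sdhc lay higher, between 11.03 and 11.37, and overlapped between genotypes.

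**Figure D1:**
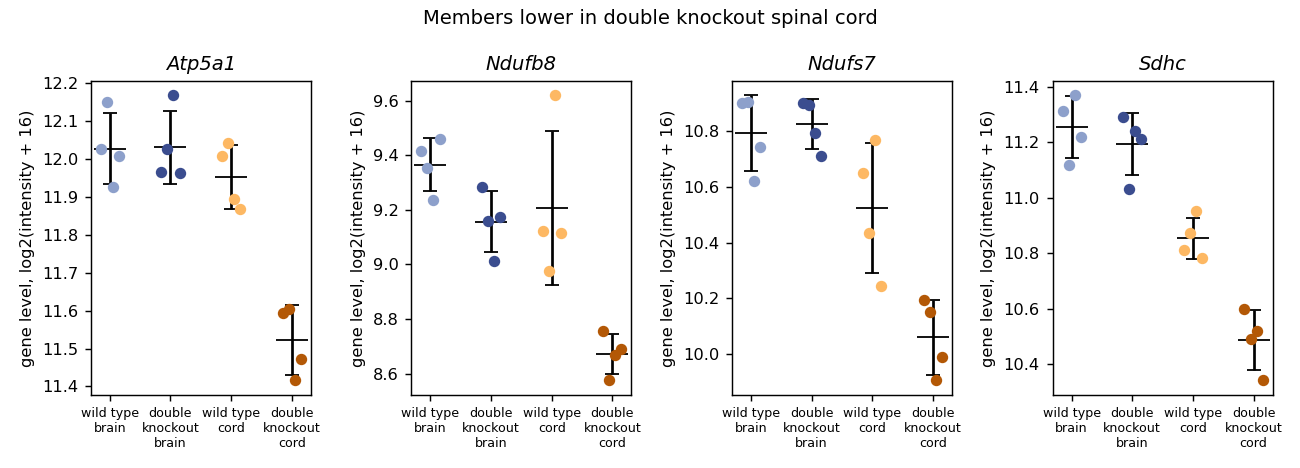
Gene level, log2(intensity + 16), of Atp5a1, Ndufb8, Ndufs7 and Sdhc on each array (points), with the mean and SD of each group of 4 (lines). For all 4 genes the double knockout cord arrays lie below the wild type cord arrays; the brain groups overlap.

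Single probe sets bore on these 4 genes unevenly. All 8 probe sets of Ndufb8 and all 7 of Sdhc were lower in double knockout cord, with medians of -0.36 and -0.34 over the probe sets. Ndufs7 had 10 of 12 lower, with a median of -0.24, and probe set 4814570 at 0.49. Atp5a1 had 16 of 18 lower with a median of -0.22, and probe sets 5094187 and 4555611 stood apart at -1.21 and -0.998, the next lowest being at -0.34. With the mean over probe sets in place of the median, Atp5a1 was at -0.28 (adjusted p = 0.0419), Ndufb8 at -0.36 (0.245), Ndufs7 at -0.20 (0.372) and Sdhc at -0.30 (0.0632). Only Atp5a1 kept its call under that choice, and its mean includes the outlying probe sets 5094187 and 4555611. The mean without them was not computed.

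The 4 calls rested on few arrays. Without double knockout cord 3 or without double knockout cord 4 no respiratory gene passed, and 262 and 264 genes passed in all, in place of 600. Without double knockout cord 2 or wild type cord 3 the number was 1, and without wild type cord 1 it was 2. It was also 2 without any of 5 brain arrays (1 and 4 of the wild type, and 1, 3 and 4 of the double knockout), which share the estimate of the spread. Atp5a1 kept its call in 14 of the 16 fits that left out an array, Ndufb8 in 12, Sdhc in 5 and Ndufs7 in 3. Adjusted p over those fits ran from 0.0131 to 0.0648 for Atp5a1 and from 0.0118 to 0.137 for Ndufs7. With the 8 cord arrays alone in the fit none of the 4 passed.

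Skeletal muscle markers moved with these samples too: all 15 had a change below 0 in double knockout cord, none passed the test, and their median was -0.27. Their mean ranged from 6.79 to 9.42 over the wild type and from 6.58 to 8.67 over the double knockout cord arrays. Myh3, an embryonic myosin, was at 9.35, 6.27, 6.12 and 8.85 in wild type and at 6.14, 8.67, 6.36 and 7.92 in double knockout cord. On the cord arrays poor in these markers it lay below the floor of 6.73, the middle of all probe sets, and the brain arrays read 5.81 to 6.11. Without the 4 cord arrays rich in muscle markers, the changes were of similar size, at -0.46 for Atp5a1, -0.59 for Ndufb8, -0.55 for Ndufs7 and -0.35 for Sdhc. With 2 arrays per cord group none of them passed, and 46 genes passed in all. Astrocyte markers were lower for 5 of 12, with a median of -0.46, and their mean lay at 9.53 to 9.95 on the wild type cord arrays against 9.19 to 9.48 on the double knockout ones. Microglia markers were lower for 3 of 12, with a median of -0.33 and group means of 7.44 and 7.10. Pan-neuronal markers had 1 of 13 higher and 1 lower, with a median of 0.04. The part of these cell types in the respiratory changes was not tested.

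By role, the 6 core subunits of complex I had a median of -0.24 in spinal cord, and all 6 were below 0. Atp5s and Atp5sl, a factor linked to ATP synthase and its relative, had a median of -0.35. Ndufs1 was at -0.21 (95% interval -0.50 to 0.09) and Ndufv1 at -0.17 (-0.43 to 0.09), and neither passed. The 29 accessory subunits of complex I had a median of -0.10, with 23 below 0. Ndufa13, which is also known as a regulator of cell death, had the lowest value of all 85 at -0.70 (SE 0.220, adjusted p = 0.106). Its arrays read 9.41, 9.41, 9.41 and 9.06 in wild type and 9.07, 8.12, 8.44 and 8.87 in double knockout cord, with a slight overlap. Ndufb5, another membrane-arm subunit, was at -0.48 (adjusted p = 0.0906). These last 2 genes were picked after their values were seen.

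The 4 subunits of complex II had a median of -0.18 and all were below 0, with Sdha at -0.13 (adjusted p = 0.669). Complex III had a median of -0.17 with 5 of 7 below 0. Uqcrfs1 was at -0.47 (SE 0.200, adjusted p = 0.251) and Uqcrc1 at -0.28 (SE 0.112, adjusted p = 0.215). The 11 genes grouped as common complex IV subunits had a median of -0.12 with 7 below 0. This group includes Cox7a2l, a relative of Cox7a2 that was placed there by its name. Cox4i1, the largest of the nuclear subunits, was at 0.02. The 15 subunits of complex V had a median of -0.09 with 12 below 0, and Atp5b, the partner of Atp5a1 in the catalytic head, was at -0.08 (95% interval -0.27 to 0.10). Probe set by probe set these partners were closer: 13 of 15 sets of Atp5b were lower with a median of -0.19, beside 16 of 18 and -0.22 for Atp5a1. The 2 highest by p were Ndufa11, an accessory subunit of complex I, at 0.24 (adjusted p = 0.358) and Cox8c, a testis form of a complex IV subunit, at 0.25 (adjusted p = 0.484). The direction of Ndufa11 turned with the summary: 6 of its 9 probe sets were lower, with a median of -0.14, and the mean over probe sets gave -0.07 (adjusted p = 0.745).

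**Figure D2:**
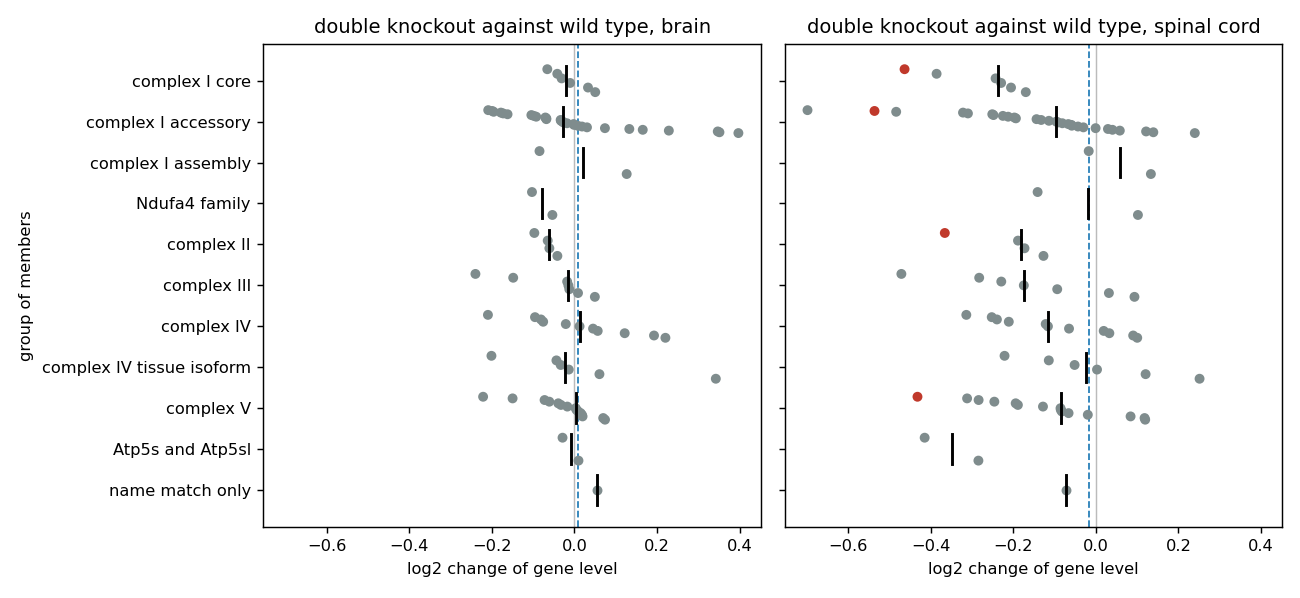
Log2 change of gene level, double knockout against wild type, for each of the 85 genes (points) by role, in brain (left) and spinal cord (right); black bars are medians of the group, the dashed line is the median of all genes and red points passed the test. Brain points lie around 0, and in spinal cord 65 of 85 lie below 0 with 4 of them red.

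The change in spinal cord was not shown to differ from that in brain. None of the 85 passed the test of the difference of the 2 changes, where 1 gene of 21634 (0.00462%) did, and 7 had an unadjusted p under 0.05, where 7.03% of all genes did. The median difference was -0.12, against -0.03 for all genes, and 64 of 85 were below 0, against 56.2%. Atp5a1 was at -0.44 (SE 0.129, adjusted p = 0.496) and Ndufs7 at -0.50 (SE 0.167, adjusted p = 0.593). In the other direction Ndufs6, a zinc-binding accessory subunit of complex I, was at 0.34 and Cox6c at 0.30. Without both brain arrays of number 3 the median was -0.04 and 47 were below 0. This comparison shares its arrays with the brain and the cord comparison, while those share none with each other.

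The genes around the respiratory chain were read in the same fit. In brain no gene of these lists passed. In spinal cord none of 20 regulators of mitochondrial biogenesis passed (median 0.03), nor any of 26 assembly factors named otherwise (-0.09), of 14 electron and metabolite carriers such as cytochrome c (-0.12), of 74 mitochondrial ribosome genes (-0.12) or of 61 cytosolic ribosome genes (-0.13). In the tricarboxylic acid cycle, which feeds the chain, 1 of 18 was lower: Idh3b, a subunit of the NAD-dependent isocitrate dehydrogenase, at -0.50 (SE 0.105, adjusted p = 0.0149). The median of that list was -0.19. Glycolysis had 4 of 19 lower and 1 higher, with a median of -0.31. Eno2, the neuronal enolase, fell by 0.95 (SE 0.172, adjusted p = 0.00593) and Aldoc, an aldolase of astrocytes that is also on the astrocyte list, by 0.59 (SE 0.117, adjusted p = 0.0113). Eno1, the general enolase, was 0.66 higher (SE 0.133, adjusted p = 0.0115), and its many near-identical pseudogenes can share its probes.

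The exon index is the log2 value of a probe set less the median of its gene's above-floor probe sets on that array. That median can differ from the gene level used above, which takes all probe sets of the gene. The index was measured for 550 probe sets in 62 of the respiratory genes. A changed index means that a probe set moved relative to that median, by its own change or by that of the median. In brain none of the 550 passed, where 0.15% of all 193126 probe sets tested did, and 16 had an unadjusted p under 0.05. The lowest adjusted p was 0.453. In spinal cord 3 passed (0.545%), where 0.388% of all did, and all 3 were higher in the double knockout.

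Probe set 5613129 of Atp5b had the largest of these changes. Its index was -2.80, -2.42, -3.48 and -3.72 in wild type cord and -1.45, -1.29, -1.68 and -1.39 in double knockout cord. Wild type cord was the group that stood low, since the brain arrays of both genotypes lay between -1.78 and -0.51. The change was 1.66 (SE 0.249, adjusted p = 0.00619), and it passed in each of the 8 fits that left out a cord array. The level of the same probe set was 10.08, 10.29, 9.06 and 8.92 in wild type cord and 11.21, 11.27, 10.88 and 11.17 in double knockout cord.

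Probe set 4814570 of Ndufs7 was the one that rose against its gene. Its index was -3.89, -4.32, -4.64 and -4.48 in wild type and -3.42, -3.41, -3.42 and -3.27 in double knockout cord, a change of 0.95 (SE 0.159, adjusted p = 0.0135). It is a dim probe set in cord, at 6.76, 6.11, 6.13 and 5.76 in wild type and 6.78, 6.74, 6.49 and 6.72 in double knockout. Only the first wild type value lay above the floor of 6.73, and the others lay below it. The brain arrays lay between 7.21 and 8.08, and the mean over all arrays, brain included, was above the floor. Cord values this close to the floor or below it give little measure of change. Its index did not pass without double knockout cord 4 (adjusted p = 0.0604).

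Probe set 5465374 of Atp5e, the epsilon subunit of ATP synthase, had an index of -0.72, -0.87, -1.03 and -0.73 in wild type and -0.39, -0.04, -0.25 and -0.20 in double knockout cord. The change of 0.62 (SE 0.127) passed at an adjusted p of 0.0472 and failed in all 8 fits that left out a cord array, with adjusted p from 0.0513 to 0.161. The level of this probe set was 6.85, 6.73, 6.04 and 6.39 in wild type and 6.83, 6.82, 6.71 and 6.55 in double knockout cord. These levels overlapped between genotypes and lay around the floor of 6.73. Without the 4 cord arrays rich in muscle markers 1 index of the 85 genes passed, and none of these 3 did. Positions of probe sets were not used, so none of the 3 is assigned to a named exon.

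Between the tissues of wild type embryos, most called respiratory genes were lower in spinal cord than in brain, and the exceptions included the muscle isoforms of complex IV. Of the 85, 34 were lower (40%) and 4 were higher (4.71%), where 25% of all genes tested were lower and 21.3% higher (46.3% in all). Every array of a tissue lay apart from the other in 21 lower and 2 higher genes, where 16.7% and 15.8% of all genes did so. The median was -0.28, against 0.03 for all genes, and 69 of the 85 were below 0, against 47.7%. At an unadjusted p 53.8% of all genes passed 0.05. Bright genes were lower in cord in general, and the 8281 genes of similar brightness had a median of -0.30. Of these, 4052 (48.9%) were lower, a larger share than the 40% of the 85, and 645 (7.79%) were higher. The tissues did not overlap in 2677 of them lower and 443 higher, and 77.4% were below 0. After quantile normalization of the arrays, 25 respiratory genes were lower and 2 higher with a median of -0.21. That scaling moved the median of all genes from 0.03 to -0.15, and the share of higher among all calls from 46.1% to 17.9%.

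In double knockout embryos 54 of the 85 were lower in cord (63.5%) and 5 higher, where 30.5% of all genes were lower and 23% higher (53.5% in all, and 59.1% at an unadjusted p under 0.05). The tissues did not overlap in 52 lower and 4 higher genes, against 30.9% and 20% of all genes, and 74 were below 0, against 51.2%. The median was -0.48, against -0.39 for genes of similar brightness and -0.02 for all genes. Of the 8281 genes of similar brightness 4907 (59.3%) were lower and 452 (5.46%) higher, near the shares of the 85. The tissues did not overlap in 5015 of these genes lower and 489 higher, and 83.6% were below 0. Quantile normalization gave 46 lower and 2 higher with a median of -0.33, moved the median of all genes to -0.21 and the share of higher among all calls from 43% to 12.8%. The wild type and double knockout tissue comparisons stand side by side as follows: 33 genes were lower in both, 4 higher in both, 1 lower in wild type only by the threshold, 21 lower and 1 higher in double knockout only by the threshold, and 25 called in neither. The difference between the 2 tissue comparisons is the same number as the difference of the 2 knockout changes, in which none of the 85 passed.

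Cox6a2 and Cox8b, the heart and skeletal muscle forms of complex IV subunits, were the 2 that rose most in cord. Cox6a2 read 6.53, 6.31, 6.10 and 6.23 in wild type brain and 8.46, 7.13, 7.34 and 7.12 in wild type cord. No brain array reached a cord array, and cord 1, the array with the highest muscle markers, was far above the rest. Cord 4, the next highest wild type array in those markers at 8.42, had the lowest Cox6a2 of its group. The difference was 1.22 (SE 0.237, adjusted p = 6.70e-04). In double knockout embryos it read 5.90, 5.85, 6.15 and 6.46 in brain and 7.16, 7.77, 7.32 and 7.58 in cord, a difference of 1.37 (SE 0.237, adjusted p = 2.21e-04). All brain values of Cox6a2 lay below the floor of 6.73, and 4 of its 7 probe sets had a mean above it. Genes with a mean level from 6 to 7, where both Cox6a2 and Cox8b lie, had medians of 0.26 in wild type and 0.28 in double knockout embryos.

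Cox8b read 6.41, 6.15, 6.45 and 6.44 in wild type brain and 7.22, 7.20, 6.85 and 6.97 in wild type cord, a difference of 0.70 (SE 0.154, adjusted p = 0.00169). In double knockout embryos it read 6.33, 6.24, 6.34 and 6.36 in brain and 6.65, 7.32, 7.59 and 7.17 in cord, a difference of 0.86 (adjusted p = 2.84e-04). The tissues did not overlap in either genotype, and all brain values lay below the floor of 6.73. After quantile normalization the wild type difference of Cox8b was 0.34 and did not pass (adjusted p = 0.0979), and that of Cox6a2 was 0.88 (adjusted p = 0.00807).

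Muscle markers moved with both genes between tissues. Of the 15 markers 14 were higher in wild type cord, with a median of 1.64, and 9 in double knockout cord, with a median of 1.45. Without the 4 cord arrays rich in these markers Cox6a2 was still 0.95 higher in wild type cord (adjusted p = 0.00209) and 1.15 higher in double knockout cord (adjusted p = 7.83e-04). Cox8b was 0.66 (adjusted p = 0.0241) and 0.80 higher (adjusted p = 0.00895). On the cord arrays that remained, the marker mean was 6.58 to 6.82, still above the brain arrays.

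**Figure D3:**
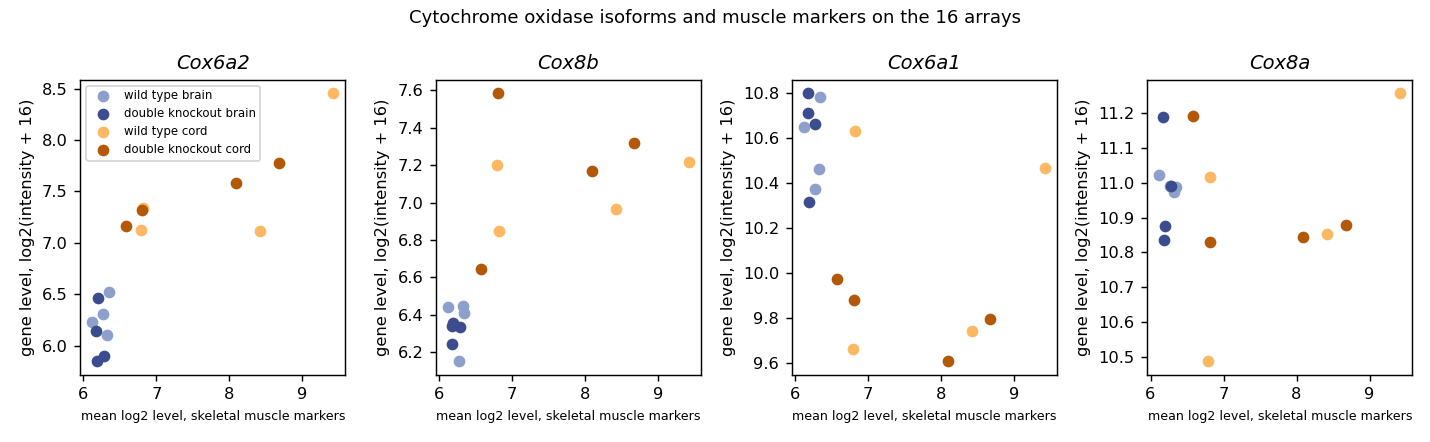
Gene level, log2(intensity + 16), of the muscle forms Cox6a2 and Cox8b and of the common forms Cox6a1 and Cox8a against the mean log2 level of 15 skeletal muscle markers on the 16 arrays (1 point per array, coloured by group). All brain arrays lie at the left, and the muscle forms are higher on every cord array, also on the 4 cord arrays whose marker mean is 6.58 to 6.82.

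Their common counterparts did not rise. Cox6a1 was at -0.44 in wild type cord (SE 0.188, adjusted p = 0.0634) and fell by 0.81 in double knockout cord (SE 0.188, adjusted p = 0.00197). Cox8a was at -0.09 and -0.04. Cox4i1 fell by 0.33 in wild type cord (adjusted p = 0.0207) and by 0.35 in double knockout cord (adjusted p = 0.0118), and its lung form Cox4i2 was at 0.03 and 0.05. The value of Cox4i2 depended on the summary: all 7 of its probe sets were higher in wild type cord, with a median of 0.33, and the mean over probe sets gave 0.32 (adjusted p = 2.36e-04), while quantile normalization gave -0.20 (adjusted p = 0.314). Cox6b1 fell by 0.58 in wild type cord (adjusted p = 0.00419), and its testis form Cox6b2 was at 0.29 and 0.10. Ndufa4, a complex IV subunit that was long counted in complex I, fell by 0.34 in double knockout cord (adjusted p = 0.0238), and its relative Ndufa4l2, known from hypoxia, was at -0.15. In wild type cord these were at -0.26 and -0.35, and neither passed (adjusted p = 0.0903 and 0.126). Cox7a2 fell by 0.37 in double knockout cord (adjusted p = 0.0179) and was at -0.25 in wild type cord (adjusted p = 0.0979). None of these genes passed the test between genotypes in either tissue.

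Ndufa11 and Ndufv3, accessory subunits of complex I, were also higher in cord. Ndufa11 was 0.48 higher in wild type cord (SE 0.122, adjusted p = 0.00446) and 0.56 in double knockout cord, and failed in both after quantile normalization (0.23 and 0.33, adjusted p = 0.224 and 0.0635). Ndufv3 was 0.57 higher in wild type (SE 0.156, adjusted p = 0.00725) and 0.42 in double knockout cord (adjusted p = 0.0319). With the mean over probe sets Ndufv3 was at 0.08 and 0.02, and did not pass (adjusted p = 0.468 and 0.853). Atp5l, subunit g of ATP synthase, passed by the threshold only in double knockout cord at 0.31 (SE 0.128, adjusted p = 0.0498) and turned to -0.13 after quantile normalization.

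Among the falls in wild type cord, Ndufs6 had the lowest adjusted p. It read 10.15, 10.24, 9.91 and 9.75 in wild type brain and 9.12, 8.90, 9.20 and 8.83 in wild type cord. The tissues were far apart, and it fell by 1.00 (SE 0.142, adjusted p = 6.15e-05). Cox6c fell by 0.93 (SE 0.177), Atp5g2, a gene for the rotor ring of ATP synthase, by 0.82 (SE 0.135), Ndufa6 by 0.79 (SE 0.128), Ndufb6 by 0.68 (SE 0.120) and Ndufa8 by 0.64 (SE 0.120), with adjusted p from 1.83e-04 to 6.00e-04.

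In double knockout embryos the lowest adjusted p belonged to Atp5g2, which read 10.62, 10.77, 10.63 and 10.49 in brain and 9.72, 9.58, 9.53 and 9.59 in cord. The fall was 1.02 (SE 0.135, adjusted p = 2.99e-05). Ndufa1, an X-linked membrane subunit of complex I, fell by 1.11 (SE 0.162), Uqcrh, the hinge protein of complex III, by 0.94 (SE 0.127), Ndufb5 by 0.94 (SE 0.147), Ndufs7 by 0.76 (SE 0.118) and Sdhc by 0.71 (SE 0.0951). In these 5 genes every cord array lay below every brain array.

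All 4 subunits of complex II were lower in cord in each genotype, with medians of -0.43 and -0.58. The 6 core subunits of complex I had 1 lower in wild type (Ndufv1, -0.39, adjusted p = 0.0161) and 6 in double knockout embryos, with medians of -0.30 and -0.56. Complex III had 3 and 5 of 7 lower, the genes grouped as common complex IV subunits 6 and 8 of 11, and complex V 4 and 8 of 15. Atp5a1 was at -0.07 in wild type (adjusted p = 0.52) and fell by 0.51 in double knockout cord (adjusted p = 2.96e-04). Atp5b was at 0.08 and 0.03. The difference between these genes was not tested.

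**Figure D4:**
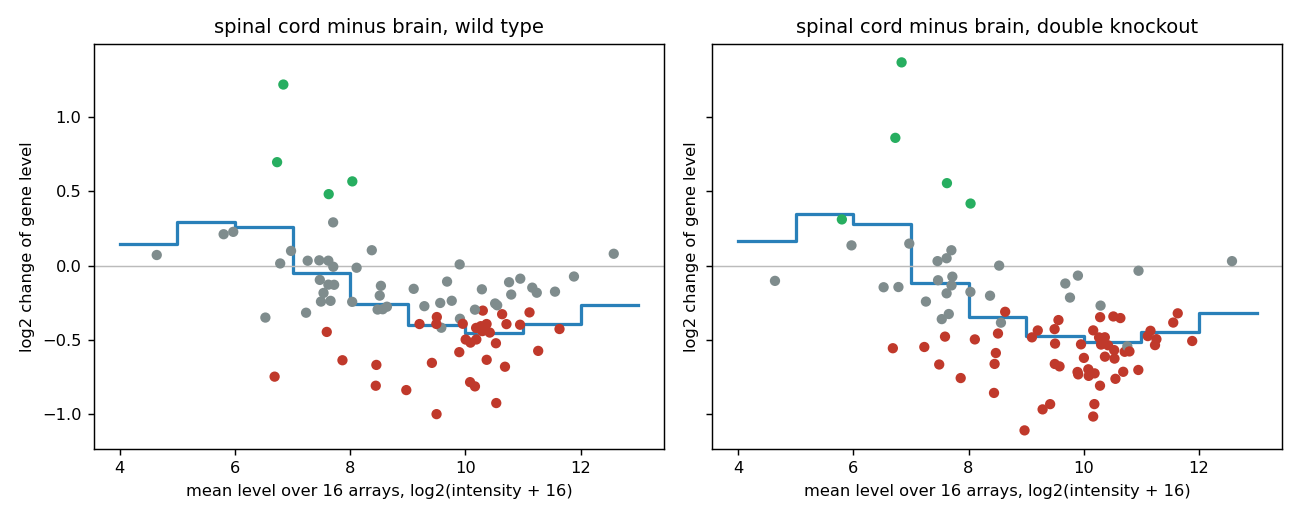
Log2 change of gene level, spinal cord minus brain, against the mean level over the 16 arrays for the 85 genes (points) in wild type (left) and double knockout embryos (right); red points passed as lower, green as higher, grey did not pass, and the blue line is the median of all genes in bins of level. Many bright respiratory genes scatter around the blue line, which is itself below 0 there, and Cox6a2 and Cox8b stand above it.

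Between tissues the respiratory genes lay near other genes of their brightness in some ranges and away from them in others. Among genes with a mean level from 10 to 11, the 26 respiratory genes had a median of -0.42 in wild type and -0.58 in double knockout embryos, against -0.45 and -0.52 for the 1000 genes of that bin. Between 8 and 9 the 12 respiratory genes were at -0.26 and -0.42, and all 4015 genes at -0.26 and -0.35. Between 11 and 12 the 7 respiratory genes were at -0.18 in wild type and -0.48 in double knockout embryos, against -0.39 and -0.45 for all 239 genes. Between 6 and 7 the 6 respiratory genes were at 0.06 and 0.00, against 0.26 and 0.28. For the knockout change in cord, the same 26 genes between 10 and 11 were at -0.19 and all genes of the bin at -0.06. No test was made of these medians.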

How the data were processed

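RNA of 16 samples in 4 groups of 4 was measured on Affymetrix exon arrays. The authors deposited 1 linear intensity per probe set and array, made with Affymetrix Power Tools and PLIER, which merges the probes of a probe set, on build mm8, per the submitters' processing notes; no version or setting is named there. No further normalization was applied. Intensities of all 625534 probe sets were taken as log2(intensity + 16), which understates the change of dim genes. Gene symbols came from the platform annotation; 5892 probe sets with several symbols were not used. Gene levels are medians over probe sets with 1 symbol, with no filter on low values: 6 of the 85 genes lay below the floor of 6.73 and 79 above. The exon index needed at least 5 probe sets above the floor by their mean over all arrays, so a probe set dim in cord could enter through brain.

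A model of group means over the 16 arrays was fitted in limma 3.58.1 (lmFit, eBayes; R 4.3.3, with the data.table package, 1.17.8), with Benjamini-Hochberg adjustment over all features and a threshold of 0.05, for 5 gene comparisons and 2 exon comparisons; the script was tested on simulated data. The number of arrays limits the precision, and no label gives a batch. Deviations of same-numbered brain arrays had correlations of 0.107 to 0.267, and those of same-numbered cord arrays -0.04 to 0.01. Arrays of different number were not compared in this way, so whether the numbers pair arrays was not tested. A block by number changed no call among the 85 in brain.

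Named genes were all called members where at most 12 were called, otherwise 6 per direction by adjusted p; where none was called in a direction, the 2 smallest p; the isoform pairs, core catalytic subunits and genes with a called exon index; and up to 3 called genes per related list. The members and lists were chosen with earlier results of these data known. Alternatives covered probe set summary, pseudocount, floor, scaling, block, sex, arrays in the fit and each array left out; leaving out the muscle-rich cord arrays or brain arrays 3 was chosen after seeing the data.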

Additional observations from a re-analysis of the deposited data

Results flagged for a closer look

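In 196 groups of 4 values, from 49 genes or medians in 4 groups, 9 had 1 array far from the other three, by a gap of nearly the whole range (Dixon's test at its 95% level). Chance gives about 1 in 20 such groups, so 9 is about what it gives.

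Cox6a2 was at 8.46 in wild type cord 1, with the other three between 7.12 and 7.34. Wild type cord 1 also had the highest muscle markers (9.42), while wild type cord 4, at 8.42 in those markers, had Cox6a2 at 7.12. The median of Ndufa4 and Ndufa4l2 was 8.81 on wild type cord 1 and 8.20 to 8.30 on the others of its group. Atp5g2 was at 9.38 in wild type cord 2, below the others at 9.90 to 9.98.

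Ndufs1 was at 9.61 and Sdha at 9.86 in double knockout cord 3, below the others at 9.95 and above and 10.17 to 10.22. Cox8a was at 11.19 in double knockout cord 1, above 10.83 to 10.88. In brain, the median of the genes grouped as common complex IV subunits was 10.31 in double knockout 4, below 10.66 to 10.71. Cox8b was at 6.15 in wild type brain 2, below 6.41 to 6.45. Atp5b was at 12.57 in double knockout brain 1, with the others at 12.51 to 12.52. The causes were not tested.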

How the results depend on the processing

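Over all alternatives, 298 counts and medians were kept and 20 moved. A count was kept when it was equal or changed by at most 1.5 times. A median was kept when it shifted by less than the SD of the per-array medians in the most variable group compared. Direction was not checked: the brain median of the 85 ran from -0.08 to 0.01 over the fits without 1 array. Of the values of single genes and probe sets 3458 stayed the same. These include genes not called at first that stayed uncalled with a shift within their SD. A call was lost in 133, gained in 40 and reversed in 1, and 21 moved. In spinal cord, over the 13 alternatives other than leaving out 1 array, Atp5a1 kept its call in 11, Ndufb8 in 10, Ndufs7 in 7 and Sdhc in 4. The 4 respiratory genes called lower in spinal cord became 1 with the mean over probe sets, 2 with a pseudocount of 1, 0 with only the arrays compared and 2 with the replicate number as a block, under which 635 genes were called in all. Without the 4 cord arrays rich in muscle genes there were 0, and with 1 array left out 0 to 5. The 3 exon index calls in spinal cord became 5 with quantile normalization, 0 with only the arrays compared and 1 without the muscle-rich arrays, and with 1 array left out 1 to 3. The median of the 85 between double knockout tissues moved to -0.33 with quantile normalization. Under that setting Atp5l turned from 0.31 to -0.13 (adjusted p = 0.432). The block moved no other count of members by over 1.5 times. The cause was not tested, beyond fewer arrays lowering power by construction. Dim genes such as Cox7b2 and Atp5l, below the floor, give little measure of change.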

Other observations

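Other mitochondrial genes were also set side by side between tissues. In wild type embryos 41 of 74 mitochondrial ribosome genes were lower in spinal cord and none was higher, with a median of -0.42, and in double knockout embryos 53 were lower and 2 higher, with a median of -0.58. Mrpl24 fell by 1.46 and 1.45. Of the 14 carriers 11 were lower in wild type and 12 in double knockout cord. Among regulators of mitochondrial biogenesis 10 of 20 were lower and 3 higher in wild type cord. Ppargc1a and Ppargc1b, coactivators that drive mitochondrial gene expression, were 0.51 (SE 0.115, adjusted p = 0.00187) and 0.79 higher (SE 0.116, adjusted p = 8.17e-05). Tfam, which packages and transcribes mitochondrial DNA, fell by 0.65 (SE 0.158, adjusted p = 0.00323). Of all genes tested, 25% and 30.5% were lower in wild type and double knockout cord, and 21.3% and 23% higher. Among genes of similar brightness to the respiratory genes, 48.9% and 59.3% were lower and 7.79% and 5.46% higher. Genes of that brightness had medians of -0.30 and -0.39 in these 2 comparisons, and the part of that trend was not tested.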
